A study of Mus musculus with 2 samples.

Results

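The genes described here are 10 genes of the liver X receptor (LXR) pathway and of cholesterol efflux, chosen by name: the transporters Abca1 and Abcg1, the lipoprotein genes Apoe, Apoc2 and Pltp, the receptor genes Nr1h2 and Nr1h3, and the LXR targets Mylip, Lpcat3 and Arl4c. They were read from 2 one-colour Agilent arrays with named probes for 20660 genes. A non-control probe was taken when its RefSeq accession belongs to one of the 10 genes, which gave 11 probes and 20 spots per array for 9 of them. No probe matched Apoc2 in this way, so it has no value. The 9 others were all well above background on both arrays.

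The arrays compared bone marrow-derived macrophages of calpain-6 wild-type mice (Capn6-Wt, 1 array) with those of calpain-6-deficient mice (Capn6-Ko, 1 array), all male, per the labels. Marrow flushed from the femur was grown in both groups with M-CSF at 50 ng/mL, the growth factor that turns marrow cells into macrophages, and with TNF-α, an inflammatory cytokine, at 10 ng/mL, in medium with 10% serum. One label dates the cultures to day 3 and another to day 4, and the design text gives 4 mice whose cells were pooled, without saying whether that is the number per group. Strain, age and the kind of calpain-6 allele are not given in the sources used here. With 1 pool per group there is no spread between replicates, so no test between genotypes exists and every difference describes these 2 RNA pools.

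Each array held 59305 non-control spots, of which 51.7% in Capn6-Wt and 52.8% in Capn6-Ko were well above background, and none was saturated. Of 15 macrophage markers 14 had a probe, and all 14 were well above background on both arrays, Csf1r (the M-CSF receptor) and Adgre1 (a macrophage surface receptor) among them. Of 18 markers of stromal fibroblasts and smooth muscle 17 were as well, so the cultures also held transcripts of that kind. The macrophage markers had a median log2 difference, Capn6-Ko minus Capn6-Wt, of 0.069, with a summed signal of 739025 in Capn6-Wt against 746296 in Capn6-Ko. The stromal markers had a median of -0.50, with summed signals of 52439 and 35216. Summed signals, here and below, are not scaled between the arrays, and the brightest probes weigh most in them. In bulk RNA, fewer cells of a type and less RNA per cell cannot be told apart.

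LXRα (Nr1h3) and LXRβ (Nr1h2) are nuclear receptors that bind oxysterols, the oxidised forms of cholesterol, and act on DNA as a pair with a retinoid X receptor (RXR). In macrophages that take up much cholesterol they raise the genes that export it: ABCA1 hands cholesterol and phospholipid to lipid-poor apolipoprotein A-I, ABCG1 loads it onto high-density lipoprotein, and apolipoprotein E and the phospholipid transfer protein (Pltp) carry it outside the cell. LXR targets also limit uptake through Mylip, an E3 ubiquitin ligase that marks lipoprotein receptors for breakdown. The calpain-6 knockout has been studied for the uptake of lipoproteins by macrophages in atherosclerosis, and the present comparison asks whether the genes of the outward route differ with it.

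LXR and RXR bind a direct repeat of a 6-base element with 4 bases between the copies, called DR4, and the promoter of Abca1 is shown because it is the member with the widest difference between the arrays and holds a match to it. The promoters are those of RefSeq on the build GRCm38.p6, used here from 250 bases before the annotated start up to that start, and 9 of the 10 members, all but Abcg1, had at least 1. In the Abca1 promoter (chr4:53159896-53160145, minus strand, written 5′ to 3′ as the gene runs) the capitals mark the DR4 match, from 67 to 52 bases before the start.
Abca1 promoter: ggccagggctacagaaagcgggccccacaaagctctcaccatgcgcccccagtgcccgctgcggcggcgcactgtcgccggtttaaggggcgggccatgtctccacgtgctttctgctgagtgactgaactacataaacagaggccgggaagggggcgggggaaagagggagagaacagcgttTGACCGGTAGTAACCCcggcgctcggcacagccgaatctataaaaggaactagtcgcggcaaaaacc

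Read on the opposite strand, the match and its counterparts in the promoters of 2 other LXR targets are set side by side, with the 6-base elements in capitals and the spacer in lower case. Srebf1 encodes SREBP1, the regulator of fatty acid synthesis, and its match lies in the promoter at chr11:60210472-60210721 (minus strand), 182 to 167 bases before that start. Fasn encodes fatty acid synthase, and its match lies at chr11:120824548-120824797 (minus strand), 225 to 210 bases before the start.
Abca1 match: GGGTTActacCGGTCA
Fasn match: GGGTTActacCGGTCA
Srebf1 match: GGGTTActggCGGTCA

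The letters common to the Abca1 and Srebf1 matches, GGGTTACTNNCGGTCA on either strand, were found in 3 of 32851 promoters (0.00913%), those of Abca1, Fasn and Srebf1. That pattern was drawn from these sequences, so its rarity elsewhere is a description. The consensus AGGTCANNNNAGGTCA on either strand, with up to 3 of its 12 fixed letters different, was in 18.5% of all promoters and in the promoters of 2 members, Abca1 and Arl4c. In the other 10 member promoters these letters are not in the window, which says nothing of LXR binding elsewhere in the genes. Abca1, Srebf1 and Fasn stood at log2 differences of 0.26, 0.19 and 0.066. Other genes with a match of up to 3 mismatches lay on both sides of 0. Among them Arl4c and Apoa2 stood at 0.14, Arl4a at -0.090 and Mboat7 at -0.035. Whether a match goes with a difference was not tested.

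None of the 9 measured members differed by 1.25-fold between the pools, a size that 8.17% of all 12875 measured genes passed, 2.64% upward and 5.53% downward. That is 340 genes higher and 712 lower, a split that became 558 and 535 when each array was centred on its median instead of its 75th percentile. Among genes brighter than the median of measured probes, where 8 of the 9 members lie, 2.17% passed it. In Capn6-Ko 6 members were higher and 3 lower, against 47.8% of all genes higher. With the arrays centred on their medians 8 of the 9 were higher. The median of all genes was itself 0.059 in that setting, so the 47.8% does not apply to it. With the 75th percentile scaling the members' median log2 difference was 0.015, where that of all genes was -0.0056. The differences ran from -0.18 (Lpcat3) to 0.26 (Abca1).

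The error given with each difference below is the SD expected from the spread of spots of the same probe within an array, so it holds nothing of the variation between mice, cultures or RNA preparations. Against that error 4 members were higher by more than 1 SD (Abca1, Pltp, Arl4c and Apoe), 1 was lower (Lpcat3) and 4 were within it (Abcg1, Nr1h2, Nr1h3 and Mylip). Of all measured genes 37.7% lay more than 1 SD from 0. Abca1 and Lpcat3 lay more than 2 SD from 0, as did 11.7% of all genes. Signals are array intensities, and since probes differ in how strongly they bind, the signal of one probe is not set against that of another.

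**Figure D1:**
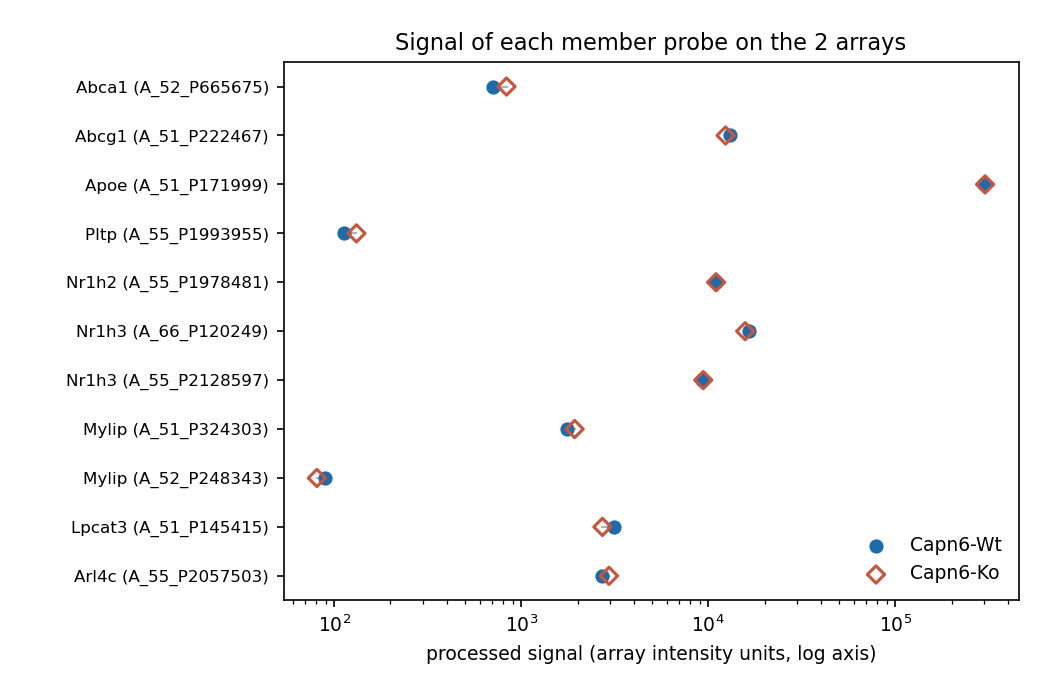
Processed signal (array intensity units, log axis) of each of the 11 member probes, with Capn6-Wt as filled circles and Capn6-Ko as open diamonds, with Apoe as the mean of 10 spots and the others from 1 spot. The marks of a probe lie close together in every row, with Abca1 at 706 and 834 and Pltp at 113 and 131 showing visible gaps to the right, and levels of different probes are not comparable.

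The 2 transporters stood apart from each other. Abca1, from 1 spot per array, read 706 in Capn6-Wt against 834 in Capn6-Ko. After scaling it was 1.20-fold higher in Capn6-Ko, a log2 difference of 0.26 ± 0.093. Of 7898 measured genes in the brighter range 268 (3.39%) differed by at least as much in either direction. Abcg1, in contrast, read 13086 in Capn6-Wt against 12380 in Capn6-Ko, a difference of -0.062 ± 0.082 that is smaller than its spot error. The gap between the 2 transporters was 0.32 ± 0.12 on the log2 scale. Scaling by the median of each array, which adds the same amount to every gene, put Abca1 at 0.323, just past 1.25-fold, and Abcg1 at 0.0030.

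Among the lipoprotein genes, Apoe was read from the most spots. Its probe has 10 spots per array, with signals from 257811 to 322243 and a median of 308343 on the Capn6-Wt array. On the Capn6-Ko array they ran from 260163 to 338488, with a median of 311048. The arrays overlap over most of their range. Apoe was higher in Capn6-Ko by 0.044 on the log2 scale, or 1.03-fold, with an error of 0.026 from the general spot spread and of 0.055 from its own spots, whose SD was 0.12 on each array. The value depended on the scaling, with 0.016 after quantile normalization and 0.109 with the median centre. Spots at the same position of the array resembled each other, and the difference taken position by position was 0.044 ± 0.042 (SD over 10 positions), above 0 in 8 and below 0 in 2. Of genes in the brighter range 59.6% differed by at least as much.

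**Figure D2:**
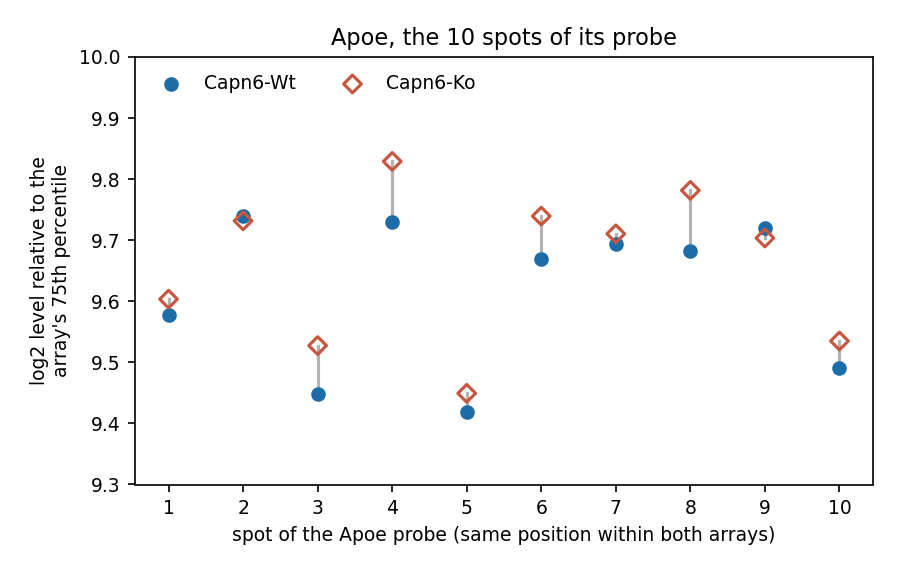
Level of each of the 10 Apoe spots (log2 relative to the array's 75th percentile) for Capn6-Wt (filled circles) and Capn6-Ko (open diamonds), joined where they share a position. Levels vary more between positions, with an SD of 0.12, than between the arrays at a position, where the mean gap is 0.044.

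Pltp, the phospholipid transfer protein, was dim, with a signal of 113 in Capn6-Wt against 131 in Capn6-Ko, where the lowest signals well above background were 16.6 and 14.0. It was 1.18-fold higher in Capn6-Ko (0.24 ± 0.17). In the dimmer range 27.2% of 4977 genes differed by at least as much, so a value of this size was common there. Apoc2, which encodes the cofactor of lipoprotein lipase, has no value. Its neighbours in the same gene cluster as Apoe, Apoc1 and Apoc4, were both measured. Apoc1, an apolipoprotein that inhibits lipoprotein lipase and other lipid enzymes, had signals of 708 and 821 and stood at 0.23 ± 0.093. Apoc4 was near the limit, with signals of 43.9 and 44.8 (0.048 ± 0.33). Apoc1 exceeded Apoe by 0.19 ± 0.096.

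The receptor genes themselves were at nearly the same level in both pools. Nr1h3 (LXRα) has 2 probes, with signals of 16512 in Capn6-Wt against 15758 in Capn6-Ko for the brighter one and 9237 and 9403 for the other. The probes gave differences of -0.049 and 0.044, and their mean was -0.0026 ± 0.058. Nr1h2 (LXRβ) read 11053 and 11020, a difference of 0.014 ± 0.082. Of genes in the brighter range 97.3% differed by at least as much as Nr1h3 and 87.2% by at least as much as Nr1h2. Of their partners, Rxrb had signals of 9725 and 10053 (0.066 ± 0.082) and Rxra, from 2 probes, stood at -0.025 ± 0.082, while 1 of 2 Rxrg probes was measured, at 0.10 ± 0.085.

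The remaining LXR targets went different ways. Arl4c, a small ARF-like GTPase, had a signal of 2707 in Capn6-Wt against 2947 in Capn6-Ko, a difference of 0.14 ± 0.085. Lpcat3, the enzyme that puts polyunsaturated fatty acids into membrane phospholipids, had 3121 and 2717, a difference of -0.18 ± 0.085, or 1.13-fold lower. Of genes in the brighter range 13.5% were at least as far from 0 as Arl4c and 7.77% as Lpcat3. These 2 genes were 0.32 ± 0.12 apart. Mylip has a brighter probe at 0.16 ± 0.085 (1754 and 1931) and a dim one at -0.13 ± 0.17 (89.4 and 80.8), and their mean was 0.015 ± 0.095. Read from the brighter probe alone, Mylip stood beside Arl4c.

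**Figure D3:**
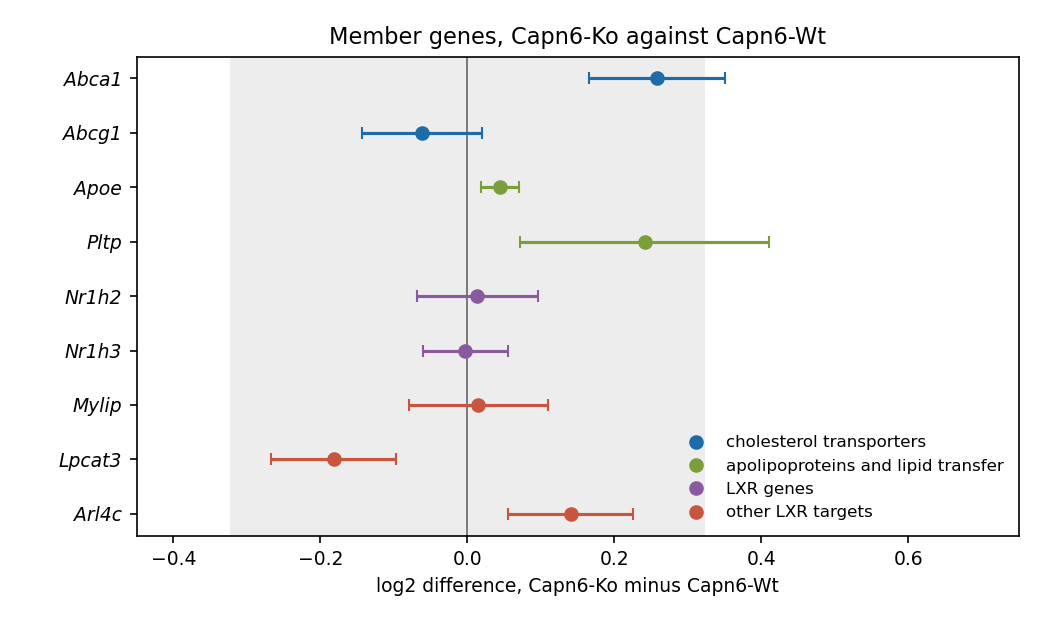
Log2 difference, Capn6-Ko minus Capn6-Wt, of the 9 measured members, coloured by role. Bars are 1 SD expected from spot spread, and the grey band marks differences under 1.25-fold, within which all 9 values lie, from Lpcat3 at -0.18 to Abca1 at 0.26.

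The other genes of the pathway were taken from 8 lists. Of 17 further LXR target genes 14 were measured, 8 higher and 6 lower in Capn6-Ko, with a median of 0.041, beside -0.0056 over all genes. The 1 past 1.25-fold was Lpl, the lipoprotein lipase that frees fatty acids from triglyceride-rich particles. Its 2 probes had signals of 50229 in Capn6-Wt against 64833 in Capn6-Ko, and of 14324 and 18433, and gave nearly the same difference, 0.39 and 0.38, with a mean of 0.38 ± 0.058. Lpl exceeded Abca1 by 0.13 ± 0.11. Srebf1 had signals of 181 and 203 (0.19 ± 0.12) and Fasn 208 and 215 (0.066 ± 0.12). The widest downward values were those of Scd1, with 293 and 253 (-0.19 ± 0.12), and Mlxipl, from 2 probes (-0.14 ± 0.072). Among the others were Cd5l, a secreted survival factor of macrophages, at 0.052 ± 0.082, the efferocytosis receptor Mertk at -0.034 ± 0.085, and Smpdl3a at 0.035 ± 0.082. The intestinal and hepatic sterol exporters Abcg5 and Abcg8, and Cyp7a1, the rate-limiting enzyme of bile acid synthesis, were not well above background on either array.

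LXR partners, coregulators and related receptors were measured in 16 of 18 cases, 10 higher and 6 lower, with a median of 0.037 and none past 1.25-fold. The widest were Nrip1, a nuclear receptor corepressor, at 0.17 ± 0.093 (signals of 624 for Capn6-Wt and 691 for Capn6-Ko), and Tbl1x, a subunit of the NCoR complex, at 0.15 ± 0.093 (852 and 933). Pparg, the fatty acid receptor that acts upstream of Nr1h3, was read from 10 spots per array, with mean signals of 7766 and 7246, and stood at -0.082 ± 0.026.

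Enzymes that make or use the sterols to which LXR responds gave the widest downward values of the 8 lists, in dim probes. Of 9 measured genes 4 were higher and 5 lower, with a median of -0.029, and 2 passed 1.25-fold downward, as did 5.53% of all genes. Both lie in the dimmer range. In either direction 8.17% of all genes passed that size but only 2.17% of those in the brighter range, so passing was more common among dim genes. Ch25h, which makes 25-hydroxycholesterol, had a signal of 86.6 in Capn6-Wt against 62.5 in Capn6-Ko (-0.45 ± 0.17). Sult2b1, which adds sulfate to cholesterol and oxysterols, had 38.5 and 26.3 (-0.53 ± 0.33). Cyp27a1, which makes 27-hydroxycholesterol, was read from 10 spots per array and stood at 0.087 ± 0.037 (155 and 162).

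Cholesterol ester and intracellular transport genes were lower in 10 of 15 measured cases, with a median of -0.028 and none past 1.25-fold. Over all genes 6718 of 12875 were lower. With the arrays centred on their medians the median of the list was 0.037, beside 0.059 over all genes. Gramd1b, an endoplasmic reticulum protein that moves cholesterol from the plasma membrane, was at 0.16 ± 0.079 (signals of 1136 for Capn6-Wt and 1252 for Capn6-Ko). Npc1, the lysosomal cholesterol exporter, was at -0.15 ± 0.076 (4048 and 3602). The list of receptors degraded through Mylip and of SREBP2 control had 5 of 9 higher and a median of 0.0054. Of the receptors, Vldlr stood at -0.049 ± 0.17 and Lrp8 at -0.15 ± 0.10, neither past 1.25-fold.

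Other transporters of the ABC classes A and G were measured in 9 of 15 cases, 5 higher and 4 lower, with a median of 0.021. Abca9 was the 1 past 1.25-fold, at 0.34 ± 0.12 (signals of 302 for Capn6-Wt and 377 for Capn6-Ko), and Abca5 was at -0.28 ± 0.17 (63.8 and 52.0). Abca7, a close relative of Abca1, was at -0.11 ± 0.076 (7287 and 6663) and Abcg2 at -0.0045 ± 0.079. The list of other apolipoproteins was measured in 6 of 14 cases, 4 higher and 2 lower, with a median of 0.048 and none past 1.25-fold. It also takes in Apobr, an apolipoprotein B receptor, at 0.051 ± 0.076, and Apoo (0.045 ± 0.051) and Apool (-0.032 ± 0.079). The median falls between Apoo and Apobr, so it is not a value of lipoprotein particle proteins alone. Clu, the secreted chaperone clusterin, was at 0.18 ± 0.093. Apoa1 and Apob, the main proteins of high- and low-density lipoprotein, were not well above background on either array. Relatives of Lpcat3 and Arl4c split 3 higher and 3 lower, with a median of 0.016, and Mboat1, a lysophospholipid acyltransferase of the same family as Lpcat3, was at 0.24 ± 0.12 (329 and 384) and Mboat7 at -0.035 ± 0.076.

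**Figure D4:**
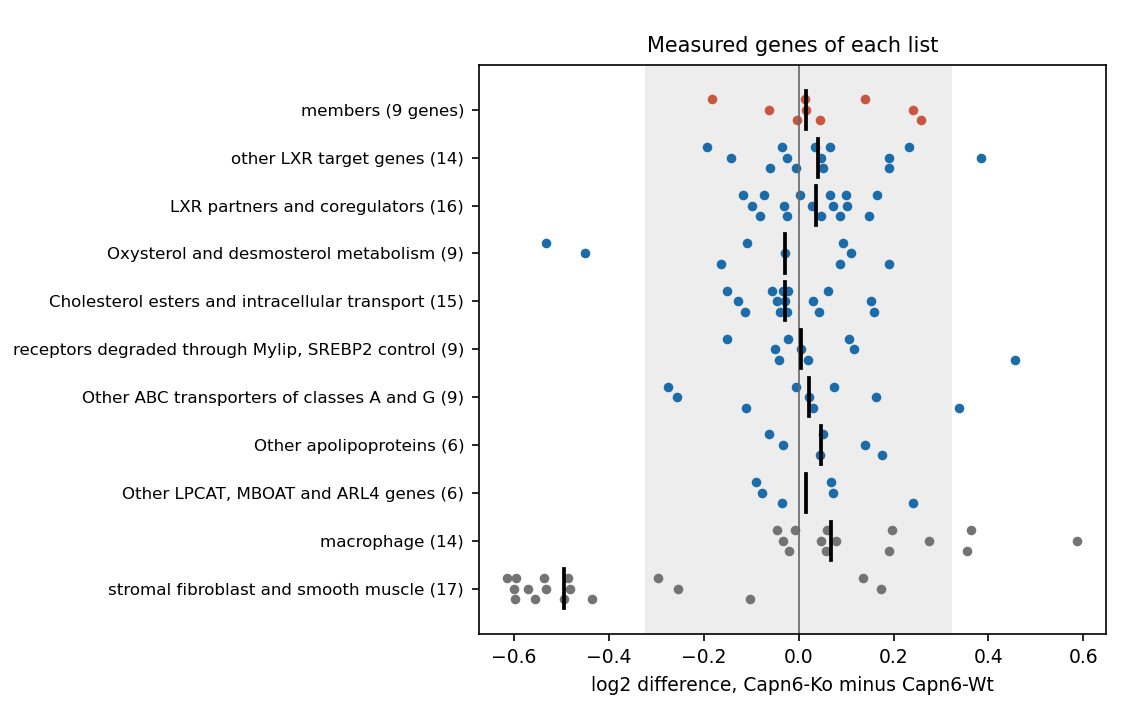
Log2 difference, Capn6-Ko minus Capn6-Wt, of every measured gene in the members' list, the 8 pathway lists and 2 marker lists, with the number of measured genes in parentheses; black bars are medians and the grey band marks differences under 1.25-fold. Medians of the pathway lists lie between -0.029 and 0.048, while the stromal markers lie around -0.50.

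Several macrophage markers were higher in Capn6-Ko too. Csf1r, from 3 probes, was at 0.20 ± 0.046, Adgre1 at 0.19 ± 0.058 and Fcgr1, an Fc receptor, at 0.27 ± 0.079. Of the 14 macrophage markers 10 were higher, 3 of them past 1.25-fold, and values ran from -0.045 to 0.59 (Cx3cr1). Of the 17 stromal markers 15 were lower, 12 of them past 1.25-fold. Of 8 adipocyte markers 4 were measured, with values from -0.13 to 0.34 and summed signals of 35517 in Capn6-Wt against 33347 in Capn6-Ko. Nearly all of each sum came from the Fabp4 probe, with 35353 in Capn6-Wt and 33178 in Capn6-Ko. Adipoq and Plin1, which define the type, were not well above background on either array. Of 6 osteoclast markers 5 were measured, 3 higher and 2 lower, with a median of 0.19 and values from -0.26 (Mmp9) to 0.56 (Dcstamp). Their summed signals were 47208 for Capn6-Wt and 50564 for Capn6-Ko, and Dcstamp and Ocstamp (0.41), genes of cell fusion, were past 1.25-fold. What part these other markers have in the values of Abca1, Lpl and the rest was not tested.

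**Figure D5:**
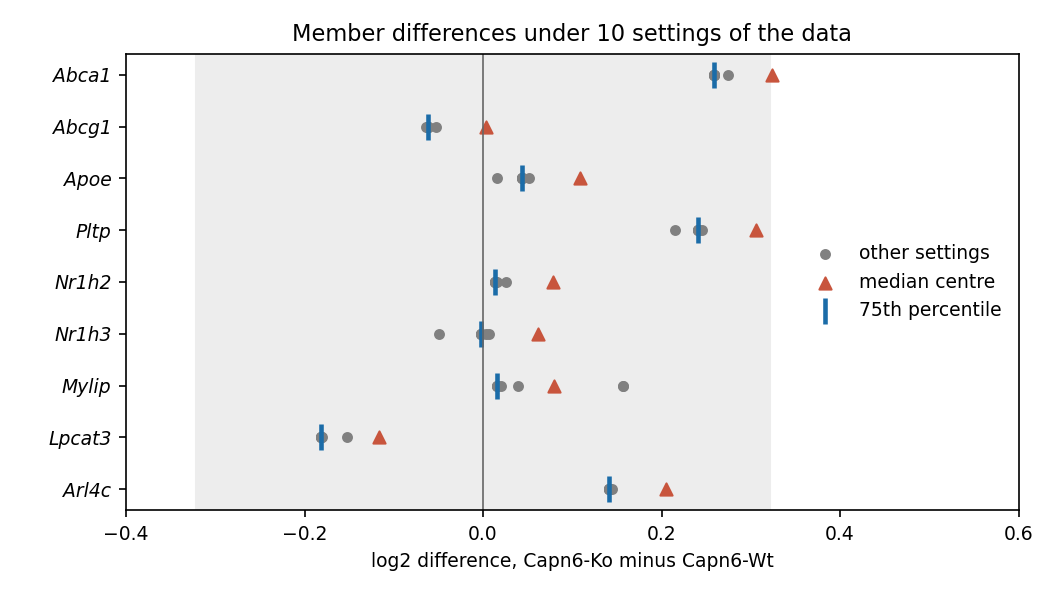
Log2 difference, Capn6-Ko minus Capn6-Wt, of each member under 10 settings of the data: the 75th percentile scaling (bars), the median centre (triangles) and 8 others (circles), with the band under 1.25-fold in grey. Abca1 stays at the upper end, from 0.26 to 0.32, Lpcat3 stays below 0, from -0.18 to -0.12, and Abcg1 and Nr1h3 straddle 0. The authors' table and, for members with 1 probe, the choices of probes repeat the main value.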

How the data were processed

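Per the file headers, the authors read Cy3-labelled RNA with Agilent Feature Extraction (version 10.10.1.1) and deposited each spot's intensity, background-subtracted within the array and not scaled between arrays. Their deposited value table is also an intensity: the same signal times 2.39 (Capn6-Wt) or 2.42 (Capn6-Ko), uncentred and with no direction. Its column medians are 53.0 and 50.7, while its 75th percentiles over non-control spots are 900.7 for both arrays. The constants thus bring the arrays to a shared 75th percentile, as in the main setting here, though the sources do not describe the step.

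Control spots and outlier spots (161 and 136) were left out. The log2 signal was taken relative to the array's 75th percentile, spots were averaged per probe, and probes with most spots well above background on both arrays were averaged per gene. Of 55678 probes 27232 matched a gene through the RefSeq table of GRCm38.p6, which gave 12875 measured genes. The spot SD comes from 263 replicated probes in 8 bins of level. The brighter range means a gene level above the median of measured probes. The number of arrays limits the precision.

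No test was possible with 1 array per group. Genes were counted at 1.25-fold. Values of some list genes are not reported here. Named are all members, list genes past 1.25-fold or else the 2 widest in the brighter range, and relatives of members. Others were added after their values were seen. They are Srebf1, Fasn, Scd1, Mlxipl, Vldlr, Lrp8, Cd5l, Mertk, Smpdl3a, Pparg, Cyp27a1, the genes not well above background and the markers. Members and lists were chosen with earlier results of these data known. Python 3.11.15 (numpy 2.4.6, pandas 2.3.3) and R 4.3.3 with limma 3.58.1 were used. The steps were tested on simulated data in which spots were drawn independently of their position. Alternatives were the median centre, quantile normalization, normexp (offset 50, on the median spot signal, since the files hold no mean), the authors' table, 4 choices of probes and keeping outlier spots.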

Additional observations from a re-analysis of the deposited data

How the results depend on the processing

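Under the 9 alternatives 166 of 197 recomputed values moved by less than their spot error or, for counts of members, by a factor of at most 1.5. Many of these values could hardly move, so the count is not a measure of robustness. The authors' table repeats the main scaling. For a member with 1 probe, any choice of probes that keeps it returns the main value. Keeping outlier spots left every member unchanged. Abca1 differed from its main value only with the median centre (0.323), quantile normalization (0.258) and normexp (0.274). Abca1 stayed between 0.258 and 0.323 and Lpcat3 between -0.182 and -0.117, and Arl4c, Pltp, Apoe, Nr1h2 and Mylip stayed above 0. The median centre adds about 0.065 to every gene. Under it the median of all genes was 0.059 and that of the members 0.080. With the median centre 8 members were higher in place of 6, and 1 member (Abca1) passed 1.25-fold. The list medians under it were 0.106 (other LXR targets), 0.102 (partners), 0.036 (oxysterols), 0.037 (esters and transport), 0.070 (receptors and SREBP2), 0.086 (ABC transporters), 0.113 (apolipoproteins), 0.081 (LPCAT, MBOAT and ARL4), 0.134 (macrophage) and -0.430 (stromal). After normexp the macrophage median was 0.0971 and the stromal one -0.402, and 81 genes were higher and 196 lower past 1.25-fold. With dim probes included the medians were -0.00612 (other LXR targets), -0.0276 (partners), -0.11 (apolipoproteins) and -0.0782 (LPCAT, MBOAT and ARL4), and 1667 genes were higher and 2590 lower. With only probes above the median level, where Pltp has none, they were -0.00612 (other LXR targets), 0.0661 (partners), 0.0932 (oxysterols), 0.117 (macrophage) and -0.537 (stromal), with 73 genes higher and 109 lower. The brightest probe per gene gave 0.0673 (partners) and 0.103 (macrophage), and the median over probes 0.107 (macrophage). Mylip was at 0.157 from its brighter probe, and Apoe at 0.109 with the median centre and 0.016 after quantile normalization. Apart from the choice of probes itself, the cause of these moves was not tested. No paired analysis was possible because each group has 1 array, so no replicate could be left out either.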

Other observations

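The 10 Apoe spots were bright or dim at the same positions on both arrays, with a Pearson r of 0.944 over 10 positions of the same probe, which share layout and hybridisation. A gene read from 1 spot per array, as 6 of the 9 measured members are, is compared at a single position, and the spot SD used here treats positions of the arrays as independent. For Apoe the standard error of the mean difference was 0.013 when taken position by position, against 0.055 from its own spots treated as independent. How far this holds for other probes was not tested.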
